A study of Mus musculus with 38 samples.

Results

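Genes of the retinoid pathway were followed through the differentiation of E14 mouse embryonic stem cells (mESCs) with all-trans retinoic acid (RA), in bulk and single-cell RNA-seq. The 7 genes were taken by name from the 23481 genes of the expression tables, and each was present in every type of measurement. They were the binding proteins Crabp1 and Crabp2, the breakdown enzymes Cyp26a1 and Cyp26b1, the retinal reductase Dhrs3, the retinol transporter Stra6 and the synthesis enzyme Aldh1a2.

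E14 is a single established mESC line. Untreated mESCs grew without feeders in 2i medium plus LIF (2i/L), a medium with a MEK and a GSK3 inhibitor. Differentiation took place in N2B27 medium with 0.25 µM RA, sampled in bulk at 9 time points from 6 h to 96 h with 1 library each, beside 2 untreated mESC libraries at 0 h. At 96 h, ectoderm-like cells (PDGFRA-/CD24+) and XEN-like cells (PDGFRA+/CD24-), which resemble extraembryonic endoderm, were sorted by antibody staining with 2 libraries each. Both sorted types were also replated in N2B27 with EGF and FGF2, a medium listed without RA. The ectoderm-like culture was sampled at passage 5 and the XEN-like culture after 3 weeks, with 1 library each. Earlier gates held PDGFRA- cells in CD24 quartiles Q1 to Q4 at 48 h, PDGFRA- cells in CD24 terciles T1 to T3 at 72 h, and PDGFRA+/CD24- cells at 72 h, again with 1 library each. Single cells were profiled by SCRB-seq, which counts 3′ tags with molecular identifiers (UMIs), at 9 time points, and by full-length SMART-seq2 at 0, 12, 24 and 48 h, with 1 plate or sample per time point.

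Retinoids act as small diffusible signals. Retinol enters cells with the help of STRA6, is oxidised to retinal and then by ALDH1A enzymes to RA, while DHRS3 turns retinal back into retinol and CYP26 enzymes oxidise RA for disposal. CRABP proteins carry RA in the cytoplasm, to nuclear receptors in the case of CRABP2, and several of these genes are themselves textbook targets of the RA receptors, which bind direct repeats of a hexamer.

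Start-site sequences are shown for the motif of the RA receptors. RefSeq windows of 250 bases before to 50 bases after each start site (build GRCm38.p6) matched 6 of the 7 members with 11 windows, and none was listed for Crabp2. The hexamer AGTTCA and its variants, namely AGGTCA, then GGTTCA and also GGGTCA, were searched on both strands. They were searched alone and as direct repeats with 1, 2 or 5 bases between them. Each repeat also counts as a hexamer match by construction. Repeats with 1 or 2 bases between were in none of the 11 windows, and in 0.222% and 0.268% of all mouse windows. The repeat with 5 bases between was present in 1 of the 11 windows, that of Cyp26a1, and in 0.0974% of all 32851 mouse windows of that length. It begins at position -32 and reads TGAACT on the printed strand, the reverse complement of AGTTCA. A hexamer without a partner was found in 1 further window, that of a Stra6 start site, at position +16, and 43.7% of all windows held at least 1 hexamer. The 3 windows of Dhrs3 held neither motif and the 4 windows of Stra6 no repeat, so that 2 of the 3 members first higher at 12 h had no repeat in these windows. Printed are the window with the repeat, that of the paralog Cyp26b1 and that of Crabp1, with the matched hexamers in capitals.
Cyp26a1, chr19:37697558-37697857, plus strand: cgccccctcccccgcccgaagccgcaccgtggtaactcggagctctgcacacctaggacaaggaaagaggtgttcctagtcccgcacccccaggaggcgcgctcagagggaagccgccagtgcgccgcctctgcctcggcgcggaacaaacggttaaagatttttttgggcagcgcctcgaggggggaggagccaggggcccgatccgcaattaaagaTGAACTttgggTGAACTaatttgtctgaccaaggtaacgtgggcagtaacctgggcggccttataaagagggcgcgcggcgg
Cyp26b1, chr6:84593761-84594060, minus strand: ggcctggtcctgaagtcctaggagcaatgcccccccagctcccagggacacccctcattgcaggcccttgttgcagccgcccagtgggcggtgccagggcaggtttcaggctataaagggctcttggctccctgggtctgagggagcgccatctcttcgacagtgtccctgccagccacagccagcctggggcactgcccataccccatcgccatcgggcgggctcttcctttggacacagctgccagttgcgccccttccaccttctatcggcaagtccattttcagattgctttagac
Crabp1, chr9:54764498-54764797, plus strand: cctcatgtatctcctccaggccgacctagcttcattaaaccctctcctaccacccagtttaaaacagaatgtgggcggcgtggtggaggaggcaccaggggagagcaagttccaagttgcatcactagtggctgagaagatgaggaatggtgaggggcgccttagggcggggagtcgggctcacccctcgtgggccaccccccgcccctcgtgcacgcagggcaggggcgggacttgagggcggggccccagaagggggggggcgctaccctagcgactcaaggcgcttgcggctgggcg
No repeat or hexamer of this set lay in the windows of Cyp26b1 and Crabp1, which concerns these letters in these 300 bases only. In the GENCODE annotation of the same build, Cyp26a1 lies on chromosome 19 from 37697798 to 37701536, Crabp1 on chromosome 9 from 54764748 to 54773110, and Crabp2 on chromosome 3 from 87948666 to 87953376. Dhrs3 lies on chromosome 4 from 144892827 to 144928209 and Cyp26b1 on the minus strand of chromosome 6 from 84571414 to 84593908. Stra6 (58063788 to 58153996) and Aldh1a2 (71215789 to 71296243) share chromosome 9 with Crabp1. The 5′ part of the annotated Stra6 locus overlaps the protein-coding gene Ccdc33, which lies on the opposite strand and reaches to 58118823, upstream of the 3′ end of Stra6.

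The bulk libraries held between 1063830 and 2459483 UMIs, and the 7 members together ranged from 118 UMIs for Aldh1a2 to 23408 for Crabp2 over the 25 libraries. Levels are given as CPM, the UMIs of a gene scaled by the total of its library, and intervals are exact and cover counting error only. Defining markers were checked in the sorted cells. The XEN list includes Pdgfra and the ectoderm list Cd24a, the genes of the proteins used for sorting. These genes are no independent check of the sort, in the calls or in the sums. Of 11 XEN markers, all were higher in sorted XEN-like than in sorted ectoderm-like cells, and of 10 ectoderm markers tested, all were lower. The summed XEN markers stood at 12049 and 6665 CPM in the XEN-like libraries and at 485 and 1779 CPM in the ectoderm-like libraries, so the second ectoderm-like library held more XEN marker RNA than the first. Summed pluripotency markers were 6267 and 4524 CPM in the sorted XEN-like cells and 790 and 432 CPM in the sorted ectoderm-like cells. In bulk data a smaller number of expressing cells and less RNA per cell cannot be told apart.

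The members were first higher than in mESCs at different times. Every RA library was also without the inhibitors and LIF of the mESC medium, so RA and the change of medium cannot be told apart in any comparison with mESCs. A member was called higher in a time point when it was at least 2-fold above both mESC libraries with at least 10 UMIs. There was no test because each time point had 1 library. Cyp26a1, Stra6, Cyp26b1 and Aldh1a2 held 4, 3, 0 and 4 UMIs over both mESC libraries. They entered the counts below only through an RA library with at least 10 UMIs, where the 2-fold call was nearly fixed in advance. The counts of members are therefore descriptions only. By this rule no member of 3 with enough UMIs was higher at 6 h, against 2.39% of all genes. At 12 h, 3 of 5 members were higher, namely Cyp26a1, Dhrs3 and Stra6, against 3.59% of all genes. Crabp2 joined them at 24 h, giving 4 of 5 members against 7.02%, and the same 4 of 5 were past the fold at 36 h against 7.21%. Crabp1, Cyp26b1 and Aldh1a2 first passed at 48 h, when all 7 of 7 members were higher against 16% of all genes. These first calls rest on the whole-culture library, and the gates and single cells of 48 h are set beside them below. From 60 h to 96 h, 6 of 6 members with enough UMIs were higher, against 15%, 18.8%, 19.1% and 20.8% of all genes at the successive time points. With CPM scaled by TMM factors, an alternative added after the data had been seen, Dhrs3 fell short of the fold at 12 h (1.98-fold above the higher mESC library), 84 h (1.60) and 96 h (1.73), leaving 2 members higher at 12 h and 5 at 84 h and 96 h. No member was at least 2-fold lower at any time point, while between 2.07% and 6.52% of all genes were (2.99% at 12 h, 4.01% at 24 h, 6.31% at 36 h, 5.06% at 48 h, 6.42% at 60 h, 6.27% at 72 h, 6.52% at 84 h and 6.43% at 96 h). All of these comparisons share the same 2 mESC libraries.

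Crabp1, a cytoplasmic RA-binding protein, was the late member with a high level. It stood at 37.2 and 13.9 CPM in the mESC libraries, at 29.3, 38.3, 34.4 and 34.5 CPM from 6 to 36 h, and at 109.8, 228, 481, 462 and 362 CPM at 48, 60, 72, 84 and 96 h. The 4 early time points lay within or just above the range of the mESC libraries, which differed from each other by 2.67-fold (interval 1.76 to 4.14). The ratio to mESCs was 4.30 (3.45 to 5.39) at 48 h and 18.8 (15.5 to 23) at the 72 h peak, and with a 4-fold instead of a 2-fold limit its first time point moved to 60 h. The 48 h call in bulk rests on 1 library of the whole culture. The 4 PDGFRA- libraries of 48 h, sorted by CD24, held 16.7 to 42.3 CPM, none of them 2-fold above both mESC libraries. SCRB-seq cells held 0.237 Crabp1 UMIs per 10000 at 48 h (0.168 to 0.326). The 48 h level lay above 0.0584 at 0 h (0.0291 to 0.104) and 0.0819 at 36 h (up to 0.126), with intervals that did not overlap. Its interval did overlap that of 0.202 at 24 h (0.138 to 0.287), and the level was 1.16 at 60 h. The 72 h and 84 h levels did not differ beyond counting error (ratio 0.961, 0.875 to 1.06).

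Crabp2, the carrier that hands RA to nuclear receptors, rose in a steady climb. Its mESC levels were 19.7 and 15.7 CPM, followed by 29.8, 35.7, 109.1, 333 and 982 CPM at 6, 12, 24, 36 and 48 h. It then stood at 1159, 1072, 959 and 496 CPM from 60 to 96 h. Every RA library lay above both mESC libraries, and the ratio to mESCs was 6.17 (4.76 to 8.07) at 24 h, 55.6 (44.5 to 70.2) at 48 h and 65.6 (52.5 to 82.9) at 60 h. Between 72 h and 96 h the level fell to a ratio of 0.463 (0.428 to 0.500).

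Cyp26a1, the main RA-oxidising enzyme of the early embryo, was nearly silent in mESCs, at 0.875 and 0.871 CPM. At 6, 12, 24, 36 and 48 h it reached 1.47, 5.29, 40.8, 64.1 and 57.3 CPM, and from 60 to 96 h it stood at 156, 109.5, 131 and 135 CPM. The level thus climbed up to 36 h and again between 48 h and 60 h, and it stood above its 72 h level at 96 h (ratio 1.24, 1.02 to 1.49) but not beyond counting error at 84 h (1.20, 0.991 to 1.45). The culture medium was renewed at 48 h, and the part of that exchange in the later step was not tested. The ratio to mESCs was 6.06 (1.84 to 25.8) at 12 h, 46.8 (17.6 to 176) at 24 h and 179 (69 to 661) at 60 h, with wide intervals because each mESC library held 2 UMIs.

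Its paralog Cyp26b1, which has the same activity, stayed low. No UMI was found in either mESC library or at 6 h, and 0.881, 2.99 and 1.21 CPM were counted at 12, 24 and 36 h. From 48 to 96 h the levels were 7.73, 11.4, 12.0, 9.33 and 7.69 CPM. Against a limit of 3 UMIs over both mESC libraries, Cyp26b1 was at least 11.8-fold higher at 48 h and at least 18.3-fold higher at 72 h. The 48 h value comes from 1 library of the whole culture, and the PDGFRA- gates of 48 h held 2.01, 0, 0 and 7.58 CPM. SCRB-seq cells held 0.0625 Cyp26b1 UMIs per 10000 at 48 h (0.0300 to 0.115), beside 0 at 0 h and 0.279 at 60 h.

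Dhrs3, which reduces retinal and so limits RA production, had a transient course. The mESC libraries held 3.94 and 11.3 CPM, a 2.87-fold difference (1.31 to 6.97), and the 6 to 48 h libraries held 10.3, 24.2, 61.3, 108 and 216 CPM. The peak of 228 CPM at 60 h was followed by 90.5, 23.9 and 26.1 CPM at 72, 84 and 96 h. Its ratio to mESCs was 3.17 (2.04 to 5.00) at 12 h, 29.8 (21.1 to 43.4) at 60 h and 3.42 (2.18 to 5.42) at 96 h, and the 96 h level was 3.46-fold (2.51 to 4.83) below that at 72 h. With the 4-fold limit its first time point moved from 12 h to 24 h.

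Stra6, the membrane transporter for retinol, was as low as Cyp26a1 in mESCs, at 0.875 and 0.435 CPM. It then stood at 0.978, 6.61, 33.9, 54.5 and 105 CPM from 6 to 48 h and at 80.5, 74.1, 43 and 46.1 CPM from 60 to 96 h. The ratio to mESCs was 10.1 (2.86 to 54.4) at 12 h and 161 (54.4 to 785) at its 48 h peak. Unlike Cyp26a1, it lay lower at 96 h than at 72 h (ratio 0.622, 0.471 to 0.818).

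Aldh1a2, the RA-synthesising enzyme of the embryo, was the least counted member. Its levels were 0.875 and 0.871 CPM in mESCs and at most 1.00 CPM from 6 to 36 h, and then 6.51, 3.60, 4.90, 2.07 and 2.56 CPM from 48 to 96 h. The ratio to mESCs was 7.45 (2.40 to 30.6) at 48 h, while at 60, 84 and 96 h its interval included 1. The 48 h call rests on 16 UMIs of 1 library. The PDGFRA- gates of 48 h held 4.01, 5.00, 4.70 and 0.631 CPM, with at most 7 UMIs each. SCRB-seq cells held 0.0562 Aldh1a2 UMIs per 10000 at 48 h (0.0257 to 0.107), beside 0.0159 at 0 h, 0.0540 at 6 h and 0.244 at 60 h. By the highest bulk library, peak times ran from 48 h for Stra6 and Aldh1a2 through 60 h for Crabp2, Cyp26a1 and Dhrs3 to 72 h for Crabp1 and Cyp26b1. Several peaks were not separated from other time points beyond counting error. Intervals overlapped for Dhrs3 at 48 h (198 to 235 CPM) and 60 h (205 to 252). They also did for Cyp26b1 at 60 h (6.87 to 17.8) and 72 h (7.51 to 18.1), and for Aldh1a2 at 48 h (3.72 to 10.6) and 72 h (2.24 to 9.31). Scaled to Gapdh, the first time points of all 7 members were the same and the peak of Cyp26b1 moved to 60 h, while with TMM factors the first time point of Dhrs3 moved to 24 h.

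**Figure D1:**
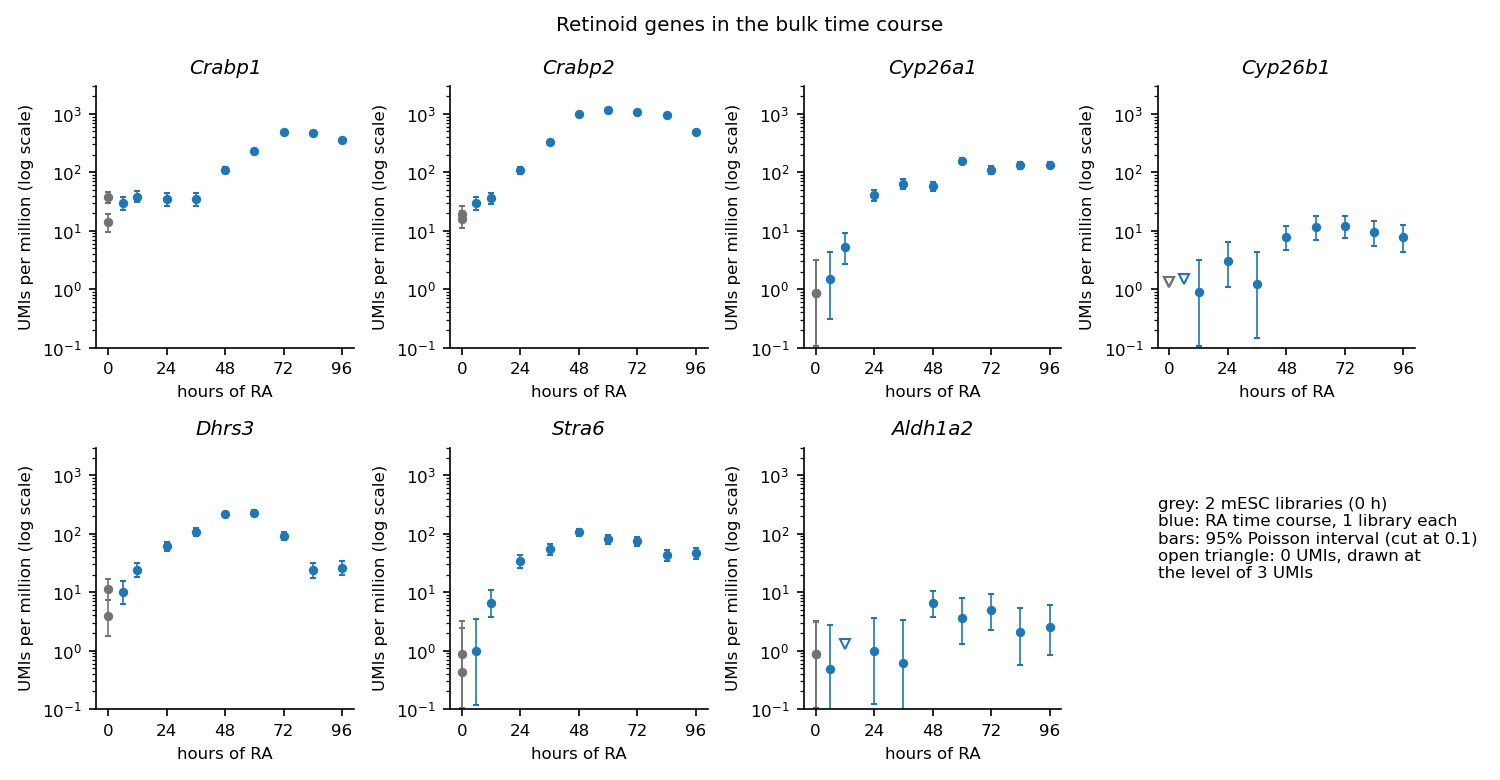
Levels of the 7 members in the bulk RA time course, in CPM (log scale) against hours of RA, with both mESC libraries in grey at 0 h, 1 library per later time point in blue, 95% Poisson bars cut at 0.1, and open triangles for 0 UMIs drawn at the level of 3 UMIs. Cyp26a1 and Stra6 climb from below 1 CPM by 24 h, Crabp1 departs from the mESC range at 48 h in this series of whole cultures, and Dhrs3 returns to 26.1 CPM at 96 h after 228 CPM at 60 h.

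Sorted cells at 96 h addressed which lineage carried each gene. The members split between the lineages. The binding proteins Crabp1 and Crabp2 were high in ectoderm-like cells and near their mESC levels in XEN-like cells, Cyp26a1 was raised in both and was highest in XEN-like cells, and Stra6 was raised in both. Crabp1 was measured at 645 and 762 CPM in the ectoderm-like libraries and at 13.7 and 14.6 CPM in the XEN-like libraries. The 2 groups did not overlap, and the XEN-like values fell at the lower mESC library. In edgeR's quasi-likelihood test with Benjamini-Hochberg adjustment, over 8947 genes, Crabp1 was lower in XEN-like than in ectoderm-like cells by a log2 fold change of -5.54 (SE 0.44, adjusted p = 0.000198).

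Crabp2 was measured at 1591 and 1112 CPM in the ectoderm-like libraries and at 16.3 and 19.1 CPM in the XEN-like libraries. This was the largest separation among the members tested, with a log2 fold change of -6.16 (SE 0.34, edgeR adjusted p = 7.63e-06) for XEN-like against ectoderm-like cells. Cyp26a1 ran the other way, at 32.2 and 21.3 CPM in ectoderm-like and 270.2 and 148 CPM in XEN-like cells. Its log2 fold change between the sorted types was 3.05 (SE 0.34, edgeR adjusted p = 0.000796). The second ectoderm-like library, which held more XEN marker RNA, had the lower Cyp26a1 level of that pair.

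Stra6 reached 44.5 and 22.6 CPM in ectoderm-like and 58.4 and 56.5 CPM in XEN-like cells. The groups did not overlap, but the difference did not pass the test (log2 fold change 0.89, SE 0.35, edgeR adjusted p = 0.133). Dhrs3 was divided within a group rather than between groups, at 73.4 and 4.52 CPM in ectoderm-like and 17.8 and 9.11 CPM in XEN-like cells. Its difference between the sorted types did not pass (log2 fold change -1.38, SE 0.85, edgeR adjusted p = 0.335), and without the first ectoderm-like library the sign turned to 1.66 (edgeR adjusted p = 0.376), whereas without the second the value was -2.19 (edgeR adjusted p = 0.0446).

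Of the 5 members that passed the count filter, 3 differed between the sorted types, against 12.7% of all genes tested. Higher in XEN-like cells was 1 of 5 members, Cyp26a1, against 6.99% of all genes, and lower were 2 of 5, Crabp1 and Crabp2, against 5.74%. Cyp26b1 and Aldh1a2 did not pass the filter. Cyp26b1 had 4.45 and 0 CPM in ectoderm-like and 12.7 and 0 CPM in XEN-like cells, so that the second library of each type held no UMI. Aldh1a2 had 7.78 and 4.52 CPM in ectoderm-like cells and no UMI in either XEN-like library, at least 6.41-fold lower against a limit of 3 UMIs over both.

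Against mESCs, 4 of 5 members differed in ectoderm-like cells, against 19.1% of all genes, and all 4 were higher, against 9.85%, and 0 of 5 were lower, against 9.28%. The log2 fold changes were 4.49 for Crabp1 (SE 0.41, edgeR adjusted p = 3.48e-05), 5.93 for Crabp2 (SE 0.33, edgeR adjusted p = 4.12e-06), 4.53 for Cyp26a1 (SE 0.53, edgeR adjusted p = 0.000203) and 5.24 for Stra6 (SE 0.58, edgeR adjusted p = 0.000131). Dhrs3 did not pass at 2.00 (SE 0.87, edgeR adjusted p = 0.134). It rested on the first ectoderm-like library, since the value was -0.98 without it (edgeR adjusted p = 0.516) and 2.88 without the second (edgeR adjusted p = 0.0130).

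In XEN-like cells, 2 of 5 members differed from mESCs, against 22.8% of all genes, and both were higher, against 12.3%, and 0 of 5 were lower, against 10.5%. Cyp26a1 was higher by 7.58 on the log2 scale (SE 0.50, edgeR adjusted p = 1.12e-05) and Stra6 by 6.12 (SE 0.56, edgeR adjusted p = 4.68e-05). Crabp1 had a log2 fold change of -1.06 (edgeR adjusted p = 0.102), Crabp2 of -0.22 (edgeR adjusted p = 0.659) and Dhrs3 of 0.63 (edgeR adjusted p = 0.667), and none of these passed. Without the second mESC library, which held the lower Crabp1 level, Crabp1 passed at -1.59 (edgeR adjusted p = 0.0112). The comparisons with mESCs share their controls. The study's methods name biological replicates for mESCs and both sorted types, while the labels do not say whether they came from separate cultures. The p-values therefore measure the spread between these libraries.

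Gates were also sorted before 96 h, at 48 h from PDGFRA- cells only and at 72 h from both sides. Among PDGFRA- cells at 48 h, most members increased with CD24. Between Q1 and Q4, 5 of 6 members with enough UMIs were at least 2-fold higher in Q4, against 8.36% of all genes, and 0 of 6 were lower, against 5.76%. Of these, Cyp26b1 had enough UMIs in Q4 only, so its call was nearly fixed in advance. Crabp2 rose through the quartiles at 359, 506, 847 and 1089 CPM, a ratio of Q4 to Q1 of 3.03 (2.75 to 3.35). Dhrs3 did so at 87.6, 122, 161 and 191 CPM (ratio 2.18, 1.77 to 2.69), and Stra6 at 38.1, 43.6, 68.6 and 82.1 CPM (ratio 2.15, 1.57 to 2.99).

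Crabp1 was low throughout these gates, at 16.7, 19.3, 42.3 and 38.5 CPM, with Q3 and Q4 above Q1 and Q2. Cyp26a1 showed the flattest course of the members with more than 50 UMIs per gate, at 46.1, 46.4, 74.3 and 80.2 CPM (ratio 1.74, 1.29 to 2.36). Cyp26b1 was counted at 2.01, 0, 0 and 7.58 CPM and Aldh1a2 at 4.01, 5.00, 4.70 and 0.631 CPM. Scaled to Gapdh, the ratios of Crabp1, Dhrs3 and Stra6 were 1.86, 1.75 and 1.74, below 2-fold, and that of Crabp2 was 2.44. Summed ectoderm markers moved with CD24 from 869 to 1522 CPM and summed pluripotency markers from 6664 to 4292 CPM, and their part in these ratios was not tested. The ectoderm sum includes Cd24a, the gene of the gating protein, so its rise is in part built into the gates.

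At 72 h the members no longer moved together with CD24. Crabp1 rose through the terciles at 97.9, 206 and 291 CPM (ratio of T3 to T1 2.97, 2.42 to 3.66) and Crabp2 at 759, 1128 and 1641 CPM (2.16, 2.00 to 2.33). They were the 2 of 6 members that were at least 2-fold higher, against 6.3% of all genes, and 0 of 6 were 2-fold lower, against 10.5%. Dhrs3 went down from 126 and 123.5 to 81.4 CPM (0.646, 0.501 to 0.831). Stra6, at 64.5, 75 and 52.2 CPM, and Cyp26a1, at 42.7, 43.2 and 32.2 CPM, had ratios whose intervals included 1.

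The 72 h PDGFRA+/CD24- gate held much Cyp26a1 and little of the 2 CRABPs. Cyp26a1 stood at 238 CPM there, above all 3 terciles, as did 1 of 6 members against 6.33% of all genes. Crabp1 was counted at 5.14 CPM, Crabp2 at 16.9 CPM and Dhrs3 at 16.2 CPM, the 3 of 6 members that were at least 2-fold below all terciles, against 6.80%. Against T3, Cyp26a1 was 7.39-fold higher (5.34 to 10.4), Crabp1 56.5-fold lower (27.2 to 142), Crabp2 97.1-fold lower (64.5 to 153) and Dhrs3 5.03-fold lower (3.16 to 8.37). Against T1, Cyp26a1 was 5.57-fold higher (4.18 to 7.56), Crabp1 19-fold lower (8.97 to 48.3), Crabp2 44.9-fold lower (29.8 to 71.2) and Dhrs3 7.78-fold lower (4.97 to 12.8).

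Stra6 did not share this split, with 54.4 CPM in the PDGFRA+ gate and a ratio to T3 of 1.04 (0.740 to 1.47). Aldh1a2 had no UMI in the PDGFRA+ gate and 5.44, 11.5 and 7.68 CPM in the terciles, at least 3.48-fold lower than in T3. Cyp26b1 was counted at 5.14 CPM in the PDGFRA+ gate and at 2.33, 5.29 and 2.30 CPM in the terciles. Summed XEN markers, which include Pdgfra, were 4380 CPM in this gate and 356 to 797 CPM in the terciles. Summed pluripotency markers were 7169 CPM against 1314 to 4643 CPM. The sorted XEN-like libraries held Cyp26a1 at ratios of 1.13 (0.986 to 1.31) and 0.620 (0.510 to 0.751) to this gate, and together they held 2.73-fold more Crabp1 (1.22 to 7.18). Of the gate and both XEN-like libraries, 2 of 3 held more Cyp26a1 than any other of the 25. The next in order, the whole culture at 60 h with 156 CPM, lay above the second XEN-like library at 148 CPM and did not differ from it beyond the spread of the sorted pair.

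Continued culture after sorting kept part of this pattern. In the ectoderm-like culture Crabp1 stood at 359 CPM, 1.95-fold below the sorted cells (1.79 to 2.12) but at a ratio of 0.937 when scaled to Gapdh, and in the XEN-like culture it was 10.3 CPM, 34.7-fold lower (20.9 to 62.4). Crabp2 stood at 183 and 12.4 CPM, 14.7-fold lower in the XEN-like culture (9.19 to 25.2). These were the 2 of 4 members with enough UMIs that were lower, against 24.9% of all genes, and 0 of 4 were higher, against 22.6%.

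Cyp26a1 and Stra6 were low in both cultures. Cyp26a1 had 1.07 CPM in the ectoderm-like culture, 25.4-fold below the sorted cells (6.83 to 213), and 4.83 CPM in the XEN-like culture, 46.9-fold below (22.6 to 117), or 56-fold and 30.6-fold below each sorted library. Stra6 had 6.96 and 6.90 CPM, 4.94-fold (2.78 to 9.55) and 8.37-fold (4.44 to 17.8) below the sorted cells. The first of these was 6.39-fold and 3.25-fold against each ectoderm-like library. Dhrs3 took the opposite course, at 177 and 150.4 CPM. The ectoderm-like culture was 2.42-fold (1.97 to 2.98) above the first and 39.2-fold (18.8 to 98.2) above the second sorted library, which themselves lay far apart. The XEN-like culture was 8.46-fold (5.90 to 12.5) and 16.5-fold (8.80 to 34.9) above the sorted XEN-like libraries.

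In the ectoderm-like culture 1 of 6 members, Dhrs3, was higher than both sorted libraries, against 15.6% of all genes, and 3 of 6 were lower (Crabp2, Cyp26a1 and Stra6), against 8.32%. Scaled to Gapdh, Stra6 had a ratio of 0.571 to the second sorted library and its call was lost, while its ratio to both was 0.370, that of Cyp26a1 was 0.0719, and Dhrs3 was 4.35-fold and 72.6-fold above each library. In the XEN-like culture Dhrs3 was likewise higher, against 22.1% of all genes, and Cyp26a1 and Stra6 were lower, against 10.7%. Aldh1a2 had no UMI in either culture, and Cyp26b1 had 0 and 2.76 CPM. The culture medium is listed without RA and with growth factors, so medium, time and passage cannot be told apart. The ectoderm-like culture held 2235 CPM of summed XEN markers, against 485 and 1779 CPM in the sorted ectoderm-like libraries, and the XEN-like culture held 10097 CPM. Summed ectoderm markers did not separate the cultures in the direction of their labels, at 1307 CPM in the ectoderm-like and 1542 CPM in the XEN-like culture, against 2631 and 2045 CPM in the sorted ectoderm-like and 597 and 308 CPM in the sorted XEN-like libraries.

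**Figure D2:**
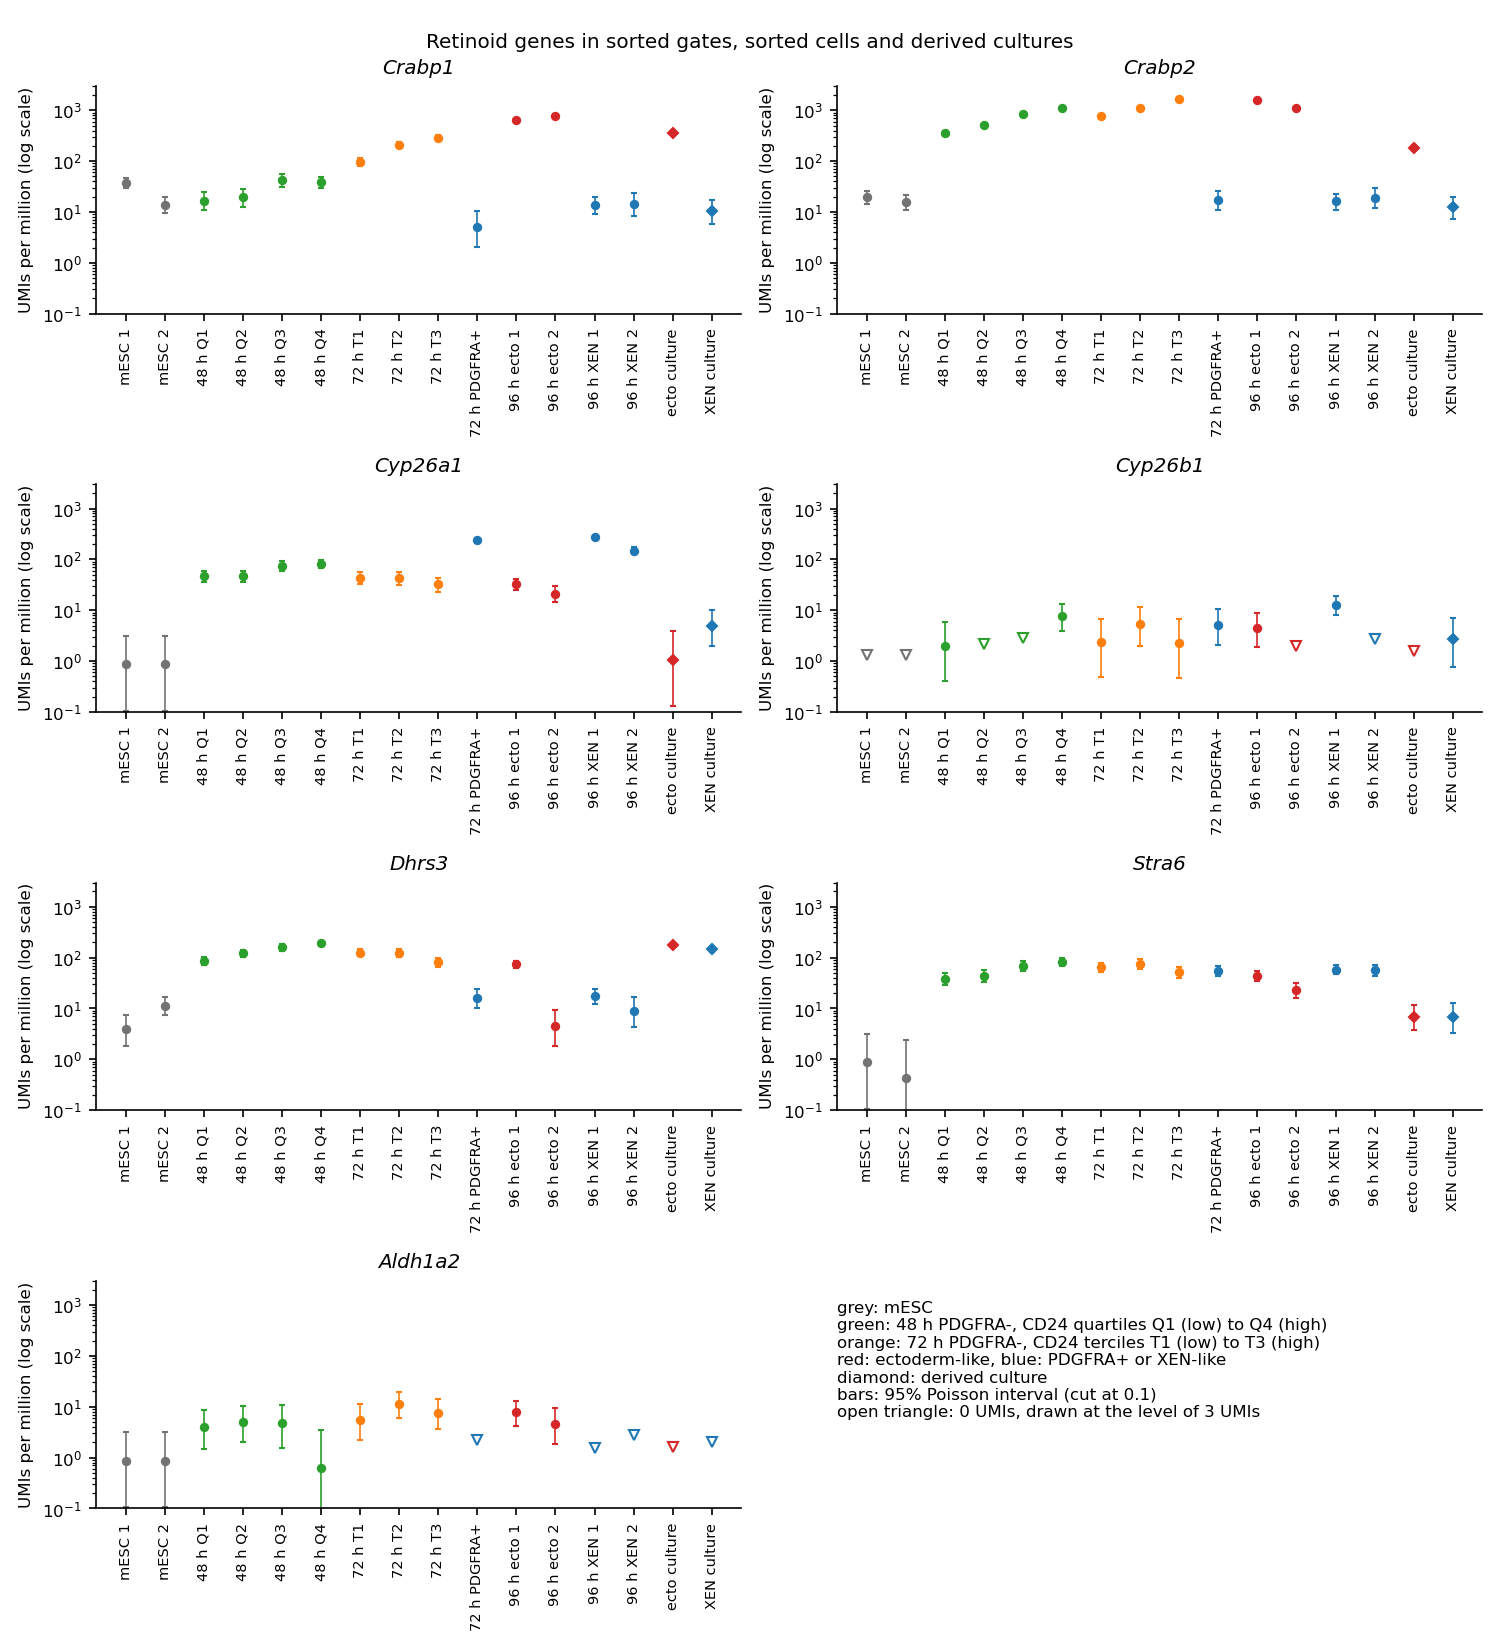
Levels of the 7 members, in CPM (log scale), in mESCs, the 48 h CD24 quartiles, the 72 h gates, the sorted 96 h cells and the derived cultures, 1 point per library with 95% Poisson bars and open triangles for 0 UMIs at the level of 3 UMIs. Crabp1 and Crabp2 separate the ectoderm-like from the PDGFRA+ and XEN-like libraries, Cyp26a1 is highest at 238 CPM in the PDGFRA+ gate and 270.2 and 148 CPM in sorted XEN-like cells, and Dhrs3 is high again in both cultures.

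Single cells showed how many cells carried each member. SCRB-seq gave 2448 cells with more than 2000 UMIs from 3456 wells, with medians of 3559.5 to 5069 UMIs per cell and time point. All 9 plates use the same 384 well names, which are positions and not shared cells. Shares of cells with a UMI are given after each cell was thinned to 2000 UMIs, and a cell without a UMI may still express the gene at this depth.

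Crabp1 was found in 1.77% of cells at 0 h (interval 0.578 to 4.09), 3.25% at 48 h, 17.2% at 60 h, 34.5% at 72 h (28.4 to 40.9) and 24.1% at 96 h. Crabp2 was found in 0 of 282 cells at 0 h, in 4.79% at 36 h, 22.7% at 48 h, 35.9% at 60 h, 36.2% at 72 h and 25.5% at 96 h. The rise of Crabp2 thus preceded that of Crabp1 in the share of cells as it did in bulk levels. At 72 h, 53% of the Crabp1 UMIs came from the tenth of cells with the most, and single cells held up to 22 of them.

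Cyp26a1 was found in 0.355% of cells at 0 h, 6.29% at 36 h, 10.5% at 48 h, 37.7% at 60 h (32 to 43.8), 20.4% at 72 h (15.5 to 26.2) and 38.7% at 96 h (30.5 to 47.4). The 72 h share lay below both neighbours with intervals that did not overlap, beside bulk levels of 156, 109.5 and 135 CPM at 60, 72 and 96 h. Stra6 had no UMI in 285 cells at 12 h (up to 0.0192 per 10000), beside 0.0424 per 10000 at 6 h. Its higher bulk level at 12 h thus had no counterpart in the SCRB-seq cells. It was found in 16.2% of cells at 48 h and in 9.49% at 96 h. Cyp26b1 stayed at or below 6.81% and Aldh1a2 at or below 4.40% of cells at every time point.

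Dhrs3 was found in 6.03% of cells at 0 h, before RA (3.55 to 9.48), and in 4.78%, 7.02% and 5.17% at 6, 12 and 24 h, with overlapping intervals. Its level per 10000 UMIs was 0.308 at 0 h (0.234 to 0.398) and 0.381 and 0.372 at 12 h and 24 h, so that the higher bulk levels of these 2 time points had no counterpart in the SCRB-seq cells. The share reached 9.88% at 36 h, 21.3% at 48 h and 27.8% at 60 h (22.6 to 33.6). At 96 h it was found in 0 of 137 thinned cells (interval up to 2.66%), with 3 UMIs in all cells before thinning, or 0.0413 per 10000 (0.00851 to 0.121). This lay below the 0 h level, whereas the bulk library at 96 h lay above both mESC libraries. At 72 h the share had still been 23.4% (18.1 to 29.3).

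Cells at 96 h were placed into 2 clusters from the 829 most variable genes, with the 7 members left out. The cluster of 65 cells held 194 UMIs of XEN markers and 10.2 of ectoderm markers per 10000, and the cluster of 72 cells held 80.7 and 24.4. Pdgfra itself stood at 2.03 and 1.52. The cluster of 65 cells was led by Gm6083, and its 10 leading genes included 1 XEN marker, Gata4, and 1 pluripotency marker, Dppa5a. The cluster of 72 cells was led by the ectoderm marker Sox11. The clusters are therefore given by their size and no lineage name. Per 10000 UMIs, Crabp1 stood at 0.942 in the cluster of 65 cells and 2.30 in that of 72 cells (ratio 0.410, 0.265 to 0.620) and Crabp2 at 0.589 and 2.12 (0.278, 0.162 to 0.458).

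Cyp26a1 was higher in the cluster of 65 cells, at 4.80 against 2.01 per 10000 (ratio 2.38, 1.81 to 3.16), and was present in 64.6% and 44.4% of the cells without thinning. Stra6 stood at 0.648 and 0.284 (2.28, 1.06 to 5.21), with intervals that included 1 in each of the 6 alternatives, and Dhrs3, with 3 UMIs, could not be compared. These ratios are descriptions of 1 plate and depend on how the variable genes were ranked. The coefficient of variation was divided by its moving average, as in the study's methods, a setting taken up here after results of subtraction had been seen. When the moving average was subtracted instead, the clusters held nearly equal XEN markers (143 and 127 per 10000), and the ratios were 0.652 for Crabp1, 0.956 for Crabp2, 1.16 for Cyp26a1 and 0.644 for Stra6. With cells classed by the summed marker lists alone, 119 cells had more XEN than ectoderm marker RNA and 18 did not, and 79 cells kept their class. The ratios were then 0.951 (0.551 to 1.76) for Crabp1, 0.437 (0.274 to 0.723) for Crabp2 and 5.27 (2.39 to 14.5) for Cyp26a1. The 18 cells held 15 Crabp1 and 6 Cyp26a1 UMIs.

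At 72 h, cells were assigned to the most similar mean profile of mESCs or of the 96 h clusters. Cyp26a1 stood at 5.32 per 10000 (3.94 to 7.03) in the 24 cells most like the cluster of 65 and at 1.25 (1.05 to 1.48) in the 184 most like that of 72. Crabp1 stood at 1.74 (0.993 to 2.82) and 3.54 (3.20 to 3.91), and Crabp2 at 1.19 and 2.51, in the same order. At 60 h, 10 cells most like the cluster of 65 held 4.82 Cyp26a1 UMIs per 10000 (3.27 to 6.84), while the 163 most like that of 72 and the 100 most like mESCs held 2.87 and 3.46.

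**Figure D3:**
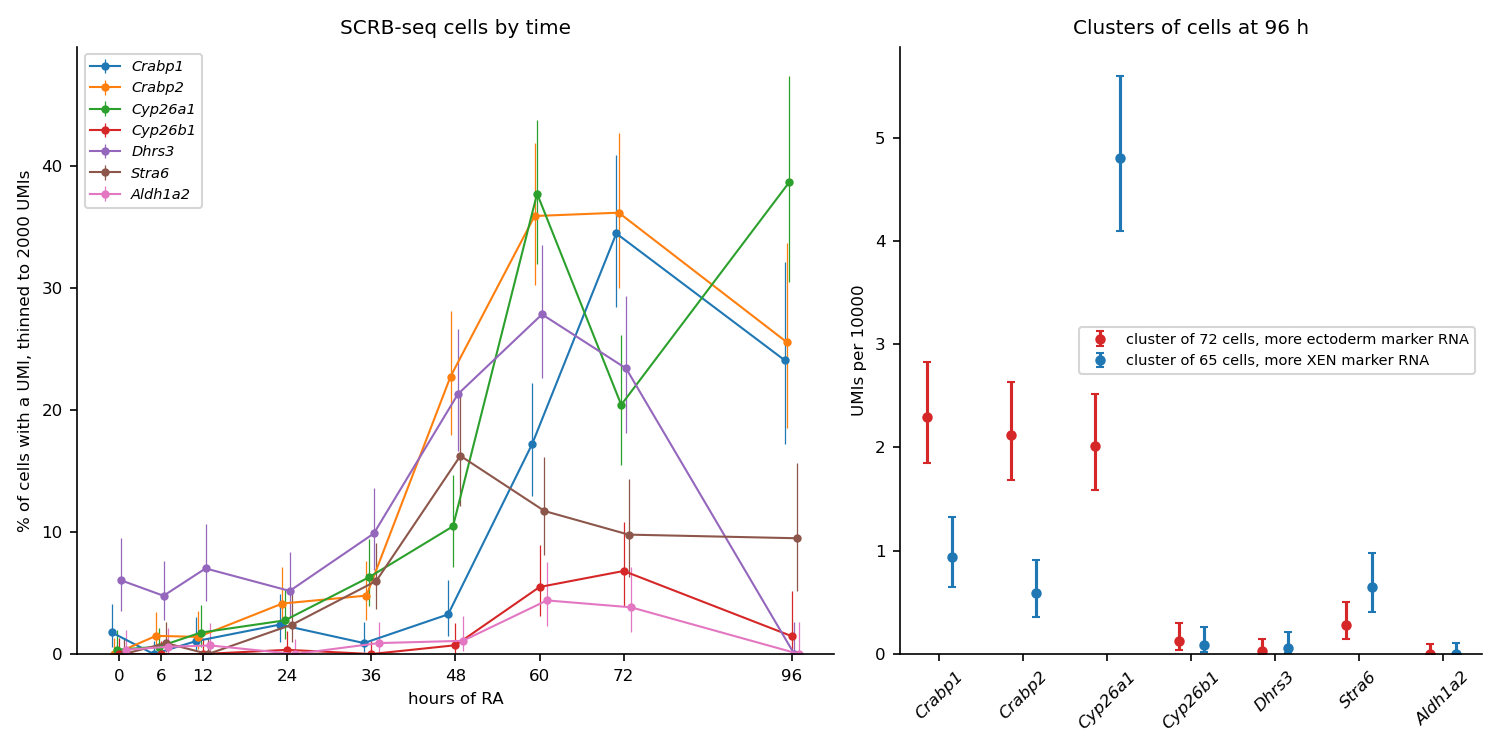
Left, share of SCRB-seq cells with a UMI of each member after thinning to 2000 UMIs, in percent, against hours of RA, with 95% binomial bars. Right, UMIs per 10000 of each member in the 96 h clusters of 72 cells (more ectoderm marker RNA) and 65 cells (more XEN marker RNA) with 95% Poisson bars: Cyp26a1 stands at 4.80 in the cluster of 65 and at 2.01 in the other, and Crabp1 and Crabp2 stand lower in the cluster of 65.

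SMART-seq2 covered the first 48 h with 82, 86, 89 and 82 cells at 0, 12, 24 and 48 h. Its values are RPKM, reads scaled by gene length and library total, scaled here to a common total, so that levels may be set between genes per length. A cell counted as expressing above 1 normalized RPKM. At 48 h the mean normalized RPKM was 978 for Crabp2, 588 for Dhrs3, 471 for Cyp26a1, 124 for Stra6, 86 for Crabp1, 13.7 for Aldh1a2 and 9.46 for Cyp26b1. The SD over cells was as large as the mean or larger for Crabp2, Cyp26a1, Crabp1, Cyp26b1 and Aldh1a2.

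Cyp26a1 came on in most cells within 24 h. The share of expressing cells was 2.44% at 0 h (0.297 to 8.53), 51.2% at 12 h (40.1 to 62.1), 83.1% at 24 h and 81.7% at 48 h, with mean normalized RPKM of 0.329, 38.9, 320.3 and 471. Crabp2 went from 25.6% through 57% and 83.1% to 89% of cells, and its mean from 10.6 through 29.5 and 91.4 to 978. The share of Crabp2 cells changed little after 24 h while the mean normalized RPKM went on climbing.

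Dhrs3 was already above the limit in 63.4% of cells at 0 h and in 94.2% at 12 h, and its mean normalized RPKM went from 29.4 through 118 and 168 to 588. Stra6 was found in 13.4%, 30.2%, 78.7% and 85.4% of cells, with means of 5.27, 10.2, 30.1 and 124. Crabp1 spread more slowly, with 17.1%, 29.1%, 46.1% and 59.8% of cells and means of 6.26, 14.7, 22.3 and 86. At 48 h, 69.1% of the summed Crabp1 signal came from the tenth of cells with the most, against 37.3% for Crabp2 and 26.5% for Stra6.

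Cyp26b1 was found in 0 of 82 cells at 0 h and in 26.8% at 48 h (17.6 to 37.8). Aldh1a2 was found in 17.1%, 5.81%, 10.1% and 20.7% of cells, with no direction beyond its intervals.

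At 48 h the cells were divided into classes of the study's sizes, but by rank, so that the cells need not be the same. The classes were the 10 cells highest in Pdgfra, the 29 highest in Cd24a among the others, and the 43 left. The lowest Pdgfra value inside was 11.1 and the highest outside 1.04 normalized RPKM. For Cd24a the corresponding values were 98 and 90, so that the second limit runs through a continuous range. All cells came from 1 sample, so the following values are descriptions.

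Crabp2 had a mean of 276 normalized RPKM (SD 399) in Pdgfra-high, 1251 (SD 1418) in Cd24a-high and 958 (SD 965) in the other cells. Crabp1 had means of 12.5 (SD 21.9), 81.1 (SD 133) and 106 (SD 288) in the same order. Both binding proteins thus had their lowest means in the Pdgfra-high cells, with an SD above the mean in every class. Cyp26a1 had means of 589 (SD 758), 452 (SD 657) and 455 (SD 730), differences well within the spread over cells, and was above 1 in 10 of 10 Pdgfra-high cells.

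Dhrs3 had means of 335 (SD 403), 815 (SD 694) and 494 (SD 365) normalized RPKM. Stra6 had means of 96.7 (SD 94.8), 170.2 (SD 84.1) and 99.8 (SD 114). Both had their highest mean in Cd24a-high cells, by differences within or near the spread over cells. Cyp26b1 was found in 1 of 10, 13 of 29 and 8 of 43 cells. Of the XEN markers, Sox17 was above 1 in 7 of 10 Pdgfra-high and 7 of 29 Cd24a-high cells, and Gata6 in 1 of 10 and 7 of 29. The XEN list, here without Pdgfra, had a median summed level of 384 in Pdgfra-high, 220 in Cd24a-high and 176 in the other cells. The ectoderm list, here without Cd24a, had medians of 1659, 2759 and 2066 in the same order.

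**Figure D4:**
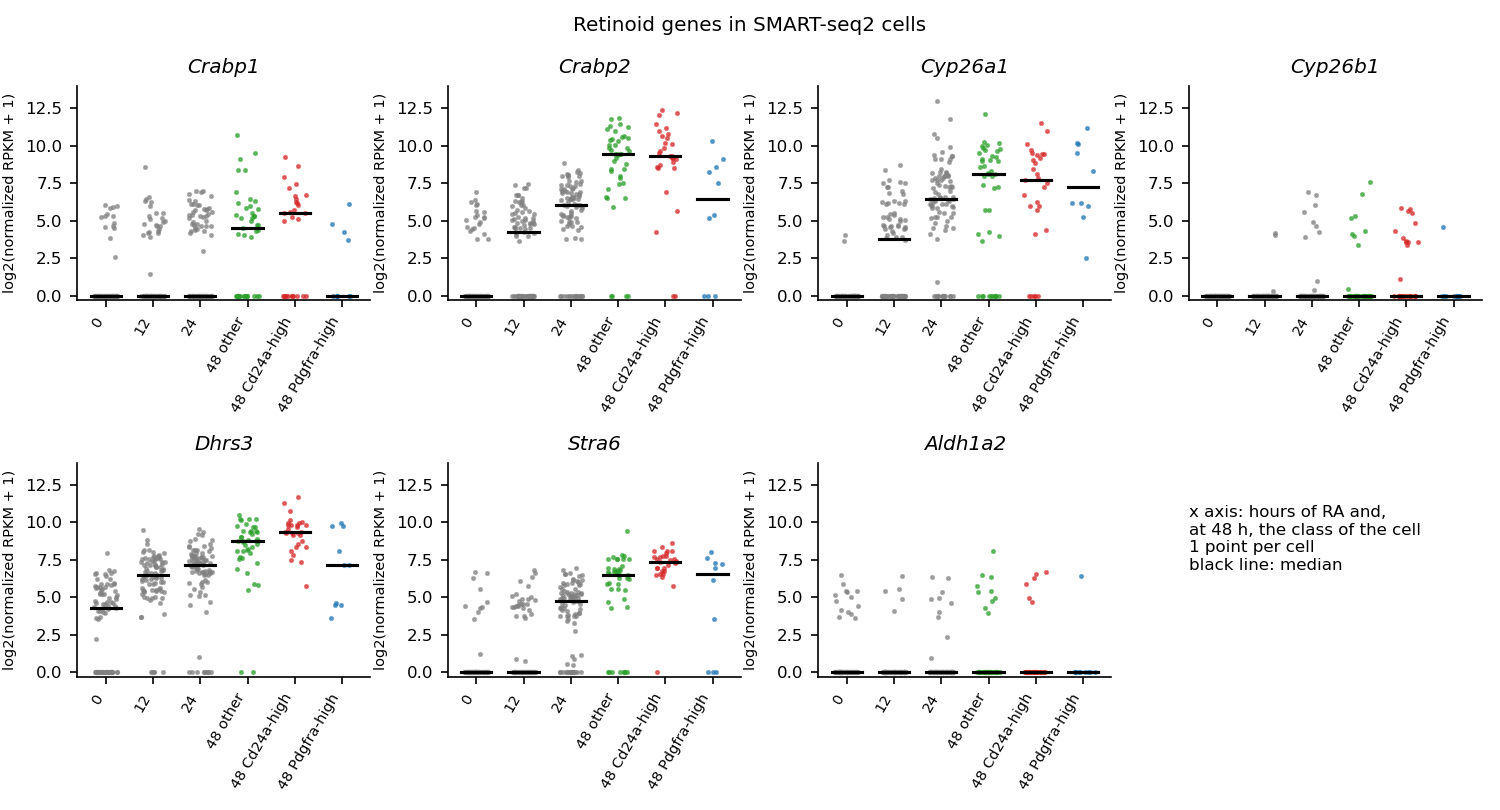
Values of the 7 members in SMART-seq2 cells as log2(normalized RPKM + 1), 1 point per cell with the median as a black line, at 0, 12 and 24 h and, at 48 h, by class (Pdgfra-high 10, Cd24a-high 29, other 43 cells). Most cells carry Cyp26a1 and Crabp2 from 24 h on, whereas Crabp1, Cyp26b1 and Aldh1a2 keep many cells at 0.

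The other genes of the pathway moved in part with the members. Of 32 further genes for uptake, storage, conversion, oxidation, breakdown and receptors, 31 were in the table and 13 were tested. In ectoderm-like cells against mESCs 5 of 13 were higher (9.85% of all genes) and 0 lower (9.28%), with a median log2 fold change of 1.00 beside 0.05 over all genes. In XEN-like cells 3 of 13 were higher (12.3% of all genes) and 0 lower (10.5%), with a median of -0.45 beside -0.06. Between the sorted types 0 of 13 were higher (6.99% of all genes) and 4 lower (5.74%) in XEN-like cells, with a median of -0.85 beside -0.06.

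Among them, Fabp5, a carrier of fatty acids that also binds RA, ran with Crabp1 and Crabp2, at a log2 fold change of -2.88 in XEN-like against ectoderm-like cells (edgeR adjusted p = 0.00308). Fabp5 is also on the ectoderm marker list. Rdh10, which oxidises retinol to retinal, was 4.57 above mESCs in ectoderm-like cells (edgeR adjusted p = 0.000842) and 2.50 above in XEN-like cells (edgeR adjusted p = 0.0480). Rarb, an RA receptor and RA target, had no UMI in either mESC library and reached 25 and 9.05 CPM in ectoderm-like and 16.8 and 5.47 CPM in XEN-like cells.

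Of 12 known RA target genes, 9 were tested, and 6 were higher (9.85% of all genes) and 1 lower (9.28%) in ectoderm-like cells than in mESCs, with a median log2 fold change of 2.89 beside 0.05 over all genes. In XEN-like cells 2 of 9 were higher (12.3%) and 1 lower (10.5%), with a median of 0.93 beside -0.06. Between the sorted types 0 of 9 were higher (6.99%) and 4 lower (5.74%) in XEN-like cells, with a median of -1.39 beside -0.06. The homeobox gene Hoxb2 was among the latter, with a log2 fold change of -5.49 (edgeR adjusted p = 0.000690).

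Likeness to a member was measured as Pearson's r of log2(CPM + 1) over the 25 bulk libraries, which share the time course and the sorts. Cyp26a1 was most like Lrp2 (r = 0.91) and Stra6 (r = 0.90), and Stra6 was most like Cyp26a1. Crabp1 was most like Myh10 (0.93), Dhrs3 like Zfp467 (0.83), Cyp26b1 like Polr2m (0.74) and Aldh1a2 like Elovl2 (0.90). Among the members, Crabp1 and Crabp2 had an r of 0.75, Crabp2 and Aldh1a2 of 0.82, and Crabp1 and Cyp26a1 of 0.07.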

How the data were processed

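The members and gene lists were chosen with earlier results of these data known. The authors deposited counts of UMIs for bulk and SCRB-seq libraries, per the labels and methods aligned with BWA 0.7.4 to mouse RefSeq mRNAs, and RPKM for SMART-seq2, which the authors made with TopHat and Cuffnorm. Rows of 2 genes with text in place of a count were left out. CPM used library totals of 1063830 to 2459483 UMIs. Exact Poisson, ratio and Clopper-Pearson intervals have a level of 95% and cover counting error only. The sorted comparisons used edgeR 4.0.16 (quasi-likelihood, TMM, filterByExpr, adjusted p threshold 0.05) on 6 libraries in 3 groups, tested on simulated data, and DESeq2 1.42.0 as an alternative. SCRB-seq cells had more than 2000 UMIs, and 96 h clusters came from k-means (50 starts, correlation distance) on the 5% most variable genes. Doublets were not called, as cells were sorted singly into wells. SMART-seq2 text values below 1 were read as 0 and 4 rows with repeated names dropped. Leading genes of clusters needed 50 UMIs, a minimum raised from 20 after the first list was seen, and with 20 no marker of either list was among them. Named genes were the 7 members, the listed genes, and the 3 most alike genes of each member, of which the text gives some and Crabp2's are not reported here.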

Additional observations from a re-analysis of the deposited data

Results flagged for a closer look

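The differences of 3 members from mESCs were unequal in the 2 sorted types by edgeR's test of the difference itself, which is the comparison of XEN-like with ectoderm-like cells because both are set against the same mESC libraries. The log2 difference was -5.54 for Crabp1 (edgeR adjusted p = 0.000198) and -6.16 for Crabp2 (edgeR adjusted p = 7.63e-06), and both were lower in both XEN-like libraries than in either ectoderm-like library. For Cyp26a1 it was 3.05 (edgeR adjusted p = 0.000796), with both XEN-like libraries higher.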

How the results depend on the processing

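In the sorted comparisons, the calls of Crabp1, Crabp2 and Cyp26a1 between the types kept direction and threshold in every alternative run. The same held for every member called in a sorted type against mESCs. DESeq2 called 1112, 1432 and 718 genes in place of 1711, 2042 and 1139 in ectoderm-like against mESC, XEN-like against mESC and XEN-like against ectoderm-like cells, and the same member counts. Leaving out each replicate gave 876 to 1750, 1267 to 1962 and 296 to 1371 genes, where a lone library is assumed to vary like the other groups. The replicate block gave 2167, 2515 and 1515 genes and changed no member's call. Deviations of same-numbered libraries correlated at 0.10 and 0.02 between mESCs and each sorted type and at 0.32 between the sorted types, where the first library was the higher of its pair for Cyp26a1, Cyp26b1, Dhrs3 and Stra6 in both. The labels do not say what a number shares. Without TMM the medians over all genes shifted to 0.36, 0.15 and -0.16, and the first comparison split into 1366 higher and 589 lower genes beside 881 and 830. Without the count filter 6, 4 and 5 members were called in these comparisons. Dhrs3 then passed in ectoderm-like cells against mESCs at 1.99 and between the sorted types at -1.38, and Crabp1 in XEN-like cells against mESCs at -1.08. Cyp26b1 passed against mESCs in both types and Aldh1a2 between the types.

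Over the libraries left out, Dhrs3 ranged from -0.98 to 2.98 in ectoderm-like cells against mESCs and from -2.19 to 1.66 between the sorted types. In XEN-like cells against mESCs, Crabp1 ranged from -1.59 to -0.25 and Crabp2 from -0.44 to 0.058. With a 4-fold limit the first time point moved to 60 h for Crabp1 and 24 h for Dhrs3, and with TMM factors, added after seeing the data, to 24 h for Dhrs3, with 5 in place of 6 members higher at 96 h. In the 96 h SCRB-seq clusters, subtraction of the moving average in place of the study's division, an alternative listed after its results had been seen, turned the log2 ratio of Stra6 to -0.63. The cause was not tested. Depth limits Cyp26b1 and Aldh1a2, with 174 and 118 UMIs over 25 libraries.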
